A study of Mus musculus with 11 samples.

Results

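The 10 genes described here encode the elastic fibre and the enzymes that cross-link it: elastin (Eln), the lysyl oxidases Lox, Loxl1 and Loxl2, fibrillin-1 (Fbn1), the fibulins Fbln2 and Fbln5, and the microfibril-associated proteins Mfap2, Mfap4 and Mfap5. They were chosen by name, with earlier results of these data known, and found by symbol. Of these, 10 of 10 were among the 23255 genes measured in mouse lung. Elastin and the cross-linking enzyme Lox had their highest values in the lungs of mice given osimertinib after naphthalene. All 5 libraries there lay above all 6 others, for Lox by a gap within counting error. Elastin averaged 229 ± 31.5 there (SD, n = 5) in the deposited unit, against 107 ± 38.1 with naphthalene alone and 127 ± 40.0 in control (SD, n = 3 each). No member passed limma's test over all 16225 genes tested, in any comparison (adjusted p under 0.05). The other lysyl oxidases, the fibulins and Mfap2 had overlapping values in the 3 groups.

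An elastic fibre has a core of elastin laid on a scaffold of microfibrils, whose main protein is fibrillin-1. Fibulins and microfibril-associated proteins help bring elastin to that scaffold, and the lysyl oxidases, which need copper, oxidise lysines so that elastin and collagen chains become cross-linked. In lung, elastic fibres run through alveolar walls, airways and vessels and give the tissue its recoil, and most elastin is made during development by fibroblasts and smooth muscle cells.

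RNA came from lungs of C57BL/6 mice in 11 libraries. In the first group, 5 libraries, mice had received osimertinib, an inhibitor of the EGF receptor used against lung cancer, after naphthalene. The second group, 3 libraries, had received naphthalene alone, a compound toxic to the club cells that line the airway, and the third, 3 libraries, was untreated control. No group given osimertinib without naphthalene was analysed here, and dose, time, age, sex and batch were not given in the sources used here. Whether replicates were separate animals is not stated, so the p-values rest on a spread between samples that may be technical. Values are in the deposited unit, CPM of a scaled library size, called scaled CPM below.

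The libraries were not alike. They held 5045361 to 13009975 reads in genes. One gene, ENSMUSG00000119584, an ID left unnamed by the name table used here, took 46.8 to 60.3% of the reads in the 3 naphthalene libraries and 43.9% in osimertinib 2, and at most 0.0337% in any of the other 7. Outside that gene these 4 libraries held 2018541 to 2965328 reads, so that a member with few reads is less precise there. Osimertinib 3 had a score of 72.7 on the first principal component (38.4% of the variance), against −29.2 to 26.2 in the other 10 libraries, and the highest value of Lyz2, a gene of macrophages and alveolar type 2 cells, at 8620 scaled CPM against at most 4989 elsewhere. In the same library the pan-leukocyte gene Ptprc was at 144, against a highest value of 209 in the other libraries. The lung label was borne out by Sftpc, the surfactant protein C of alveolar type 2 cells, at 5940 or more in every library, and by Ager, a marker of alveolar type 1 cells, at 577 or more.

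**Figure D1:**
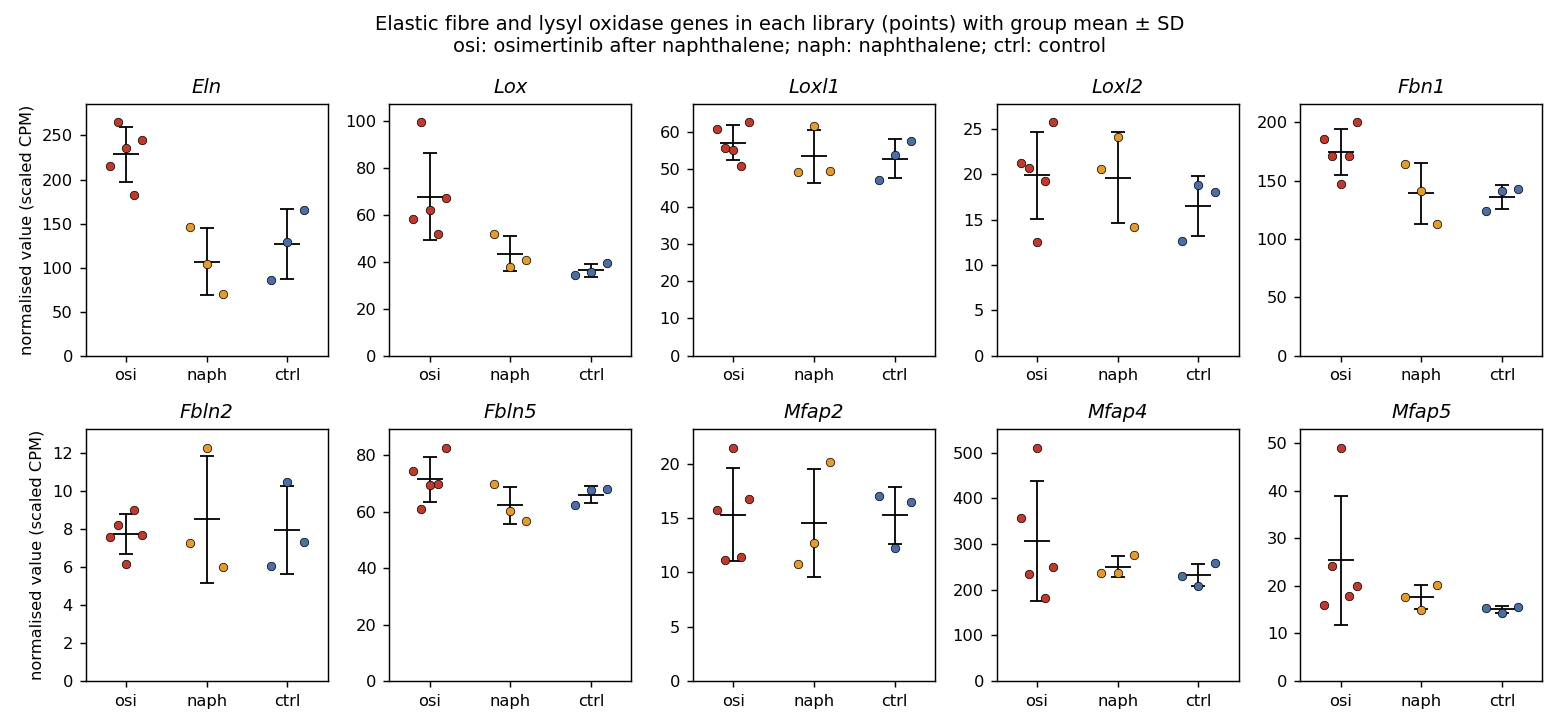
Values of the 10 genes in scaled CPM (vertical axis, from 0) in each library (points), for osimertinib after naphthalene, naphthalene alone and control, with the group mean ± SD. Eln and Lox are the panels in which all 5 osimertinib points lie above all 6 others, and the Mfap5 panel has 1 osimertinib point, at 49.1, far above the rest.

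Elastin, the protein of the fibre core, showed the largest difference among the members. In osimertinib 1 to 5 Eln was at 216, 265, 236, 182 and 244 scaled CPM. It was at 146, 104 and 69.8 in naphthalene 1 to 3, and at 85.9, 129 and 166 in control 1 to 3. The osimertinib libraries stood clear of both other groups, while the naphthalene and control libraries covered nearly the same range. The counting error was small beside this spread: the lowest value, 69.8 in naphthalene 3, rested on 152 reads (95% Poisson interval 59.1 to 81.8), and the lowest osimertinib value, 182, on 2737 reads (175 to 189). Both intervals cover counting error only. The mean in osimertinib was 2.15 times the mean with naphthalene alone, a log2 difference of 1.15 (SE 0.24, 95% interval 0.63 to 1.66, unadjusted p = 0.000428, adjusted p = 0.188 by limma). By p, Eln ranked 34 of the 16225 genes in this comparison. Against control the log2 difference was 0.88 (SE 0.24, interval 0.36 to 1.40, unadjusted p = 0.00304, adjusted p = 0.601). Naphthalene alone differed from control by −0.26 (interval −0.84 to 0.32, adjusted p = 0.895). On the recovered reads DESeq2 gave Eln an adjusted p of 0.0523 for osimertinib against naphthalene and 0.124 against control, and edgeR 0.431 and 0.457.

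Lox is the lysyl oxidase after which the family is named. Its values were 58.3, 99.5, 61.9, 52.0 and 67.4 scaled CPM in osimertinib 1 to 5, 51.8, 38.0 and 40.8 in naphthalene 1 to 3, and 34.2, 35.6 and 39.4 in control 1 to 3. The groups did not overlap, but the gap was narrow against naphthalene, where osimertinib 4 at 52.0 lay next to naphthalene 1 at 51.8. Osimertinib 2, in which the unnamed gene took 43.9% of reads, was the highest library for both Lox and Eln. The mean was 67.8 ± 18.6 in osimertinib (SD, n = 5), against 43.5 ± 7.29 with naphthalene and 36.4 ± 2.71 in control (SD, n = 3 each). The log2 difference was 0.60 against naphthalene (SE 0.18, interval 0.21 to 1.00, unadjusted p = 0.00567, adjusted p = 0.275) and 0.85 against control (SE 0.18, interval 0.45 to 1.24, unadjusted p = 0.000508, adjusted p = 0.317). By DESeq2 on the recovered reads Lox rose against control (log2 0.91, adjusted p = 0.0113), higher in 5 of 5 osimertinib libraries, while edgeR gave an adjusted p of 0.272. With array weights, which give less weight to libraries far from their group, limma gave Lox a log2 difference of 0.71 from control (adjusted p = 0.0209). Without osimertinib 2 and 3 together, limma gave Lox a log2 difference of 0.44 against naphthalene and 0.68 against control, and Eln 1.05 and 0.79. Osimertinib 2 alone against the naphthalene libraries, a comparison within the libraries of high read share and without a measured spread for osimertinib 2, gave 1.37 for Eln and 1.19 for Lox. Among the libraries without that share, leaving osimertinib 2 out, the differences from control were 0.83 for Eln and 0.70 for Lox.

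The related enzymes did not show such a gap. Loxl1, which is needed to maintain elastic fibres in adult mice, was at 50.9 to 62.6 scaled CPM in osimertinib, at 49.3 to 61.7 in naphthalene and at 47.2 to 57.7 in control. Loxl1 had a log2 difference of 0.10 against naphthalene (interval −0.14 to 0.33) and 0.11 against control (−0.13 to 0.35). Loxl2, an enzyme that cross-links collagen IV of basement membranes, was at 12.5 to 25.7 in osimertinib, 14.2 to 24.1 in naphthalene and 12.7 to 18.8 in control. The log2 difference of Loxl2 from naphthalene was 0.01 with an interval of −0.48 to 0.50, and from control 0.24 with an interval of −0.25 to 0.73.

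Fibrillin-1 (Fbn1), the main protein of the microfibril, had unadjusted p-values under 0.05 against both groups, but not after blocking on the replicate number. The block gave an unadjusted p of 0.0854 (adjusted p = 0.567 by limma) against naphthalene and of 0.0684 (adjusted p = 0.838) against control. It rests on osimertinib 1 to 3 only, since no other group has the numbers of osimertinib 4 and 5. Osimertinib 5, the highest library for Fbn1, is thus left out, so the block does not show the effect of pairing alone. Fbn1 was at 186, 171, 147, 171 and 200 scaled CPM in osimertinib 1 to 5, at 164, 141 and 112 in naphthalene 1 to 3, and at 124, 141 and 143 in control 1 to 3. The osimertinib libraries were all above the control libraries, and 4 of 5 were above every naphthalene library, with osimertinib 3 between them. The log2 difference was 0.34 against naphthalene (SE 0.13, interval 0.05 to 0.62, unadjusted p = 0.0242, adjusted p = 0.399) and 0.36 against control (SE 0.13, interval 0.07 to 0.64, unadjusted p = 0.0183, adjusted p = 0.847). The difference from naphthalene leaned on naphthalene 3, the lowest library, without which it was 0.19 (unadjusted p = 0.157). The difference from control was 0.38 with array weights (adjusted p = 0.0356), and 0.15 when libraries were scaled to equal totals outside the dominant gene.

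Of the 3 members with an unadjusted p under 0.05, RefSeq's promoter table matched Fbn1 alone, so its upstream sequence is shown. The 250 bases before its start on the minus strand, chr2:125506439-125506688 in GRCm38.p6, are printed 5′ to 3′ with a GC box (GGGCGG, sought on both strands) in capitals.
Fbn1: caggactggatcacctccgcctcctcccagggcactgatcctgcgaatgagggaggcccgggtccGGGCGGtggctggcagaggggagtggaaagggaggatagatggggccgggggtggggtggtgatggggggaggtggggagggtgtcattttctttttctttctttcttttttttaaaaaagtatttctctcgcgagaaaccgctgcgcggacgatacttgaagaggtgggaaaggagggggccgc
A GC box stood in 32.7% of 32851 promoters of that length. The letters CAGAC, the core of a SMAD-binding element, were not in this window on either strand, and stood in 42.2% of promoters. The core promoter element TATAAA was not in it either, and stood in 12.4%. The 3 motifs do not overlap each other, and a match is a description of letters only.

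The fibulins, which tether elastin to the scaffold and to cells, varied little between groups. Fbln5, which binds elastin and is needed for normal elastic fibres in mice, averaged 71.5 ± 7.97 scaled CPM in osimertinib (SD, n = 5), 62.3 ± 6.70 with naphthalene and 66.1 ± 3.11 in control (SD, n = 3 each). Its log2 difference was 0.20 against naphthalene (interval −0.04 to 0.43, unadjusted p = 0.0903) and 0.11 against control (−0.12 to 0.34). Fbln2 had the lowest values of the 10 members, at 6.15 to 8.98 in osimertinib, 5.97 to 12.3 in naphthalene and 6.02 to 10.5 in control. In naphthalene 3 the Fbln2 value rested on 13 reads (95% Poisson interval 3.18 to 10.2), so differences of the size of its own spread could not be detected at this depth.

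The microfibril-associated proteins differed from each other in how they varied. Mfap2, a small protein that binds fibrillin, was at 11.1 to 21.5 scaled CPM in osimertinib, 10.7 to 20.2 in naphthalene and 12.2 to 17.0 in control, with a log2 difference of 0.08 against naphthalene (interval −0.44 to 0.59) and −0.02 against control (−0.54 to 0.49). Mfap4, which binds elastin and collagen and is abundant in lung, was at 357, 235, 511, 181 and 250 in osimertinib 1 to 5, at 237, 237 and 276 in naphthalene, and at 229, 208 and 257 in control. The osimertinib libraries spanned the other groups on both sides, from the lowest value of all 11 libraries in osimertinib 4 to the highest in osimertinib 3. Mfap5, a relative of Mfap2 found on microfibrils, was at 15.9, 24.1, 49.1, 17.8 and 20.1 in osimertinib 1 to 5, at 17.7, 15.03 and 20.2 in naphthalene, and at 15.3, 14.3 and 15.6 in control. All 5 osimertinib libraries were above control for Mfap5, the closest pair being 15.9 in osimertinib 1 and 15.6 in control 3, and osimertinib 3 stood far above the rest. The log2 difference of Mfap5 from control was 0.60 (interval −0.02 to 1.21, unadjusted p = 0.0567, adjusted p = 0.999), and it was 0.33 without osimertinib 3 (unadjusted p = 0.0377). For Mfap4 the log2 difference was 0.20 against naphthalene (interval −0.37 to 0.77) and 0.31 against control (−0.26 to 0.88), and without osimertinib 3 it was −0.0070 and 0.11. Blocking on the replicate number gave Mfap4 0.49 and 0.60 (unadjusted p = 0.020 and 0.00693, adjusted p = 0.474 and 0.555 by limma). The block leaves out osimertinib 5 and osimertinib 4, the lowest library for Mfap4, because no other group has their numbers. Osimertinib 3 was also the library with the highest Lyz2 and Sftpc, and the part of its cell content in these 2 genes was not tested.

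**Figure D2:**
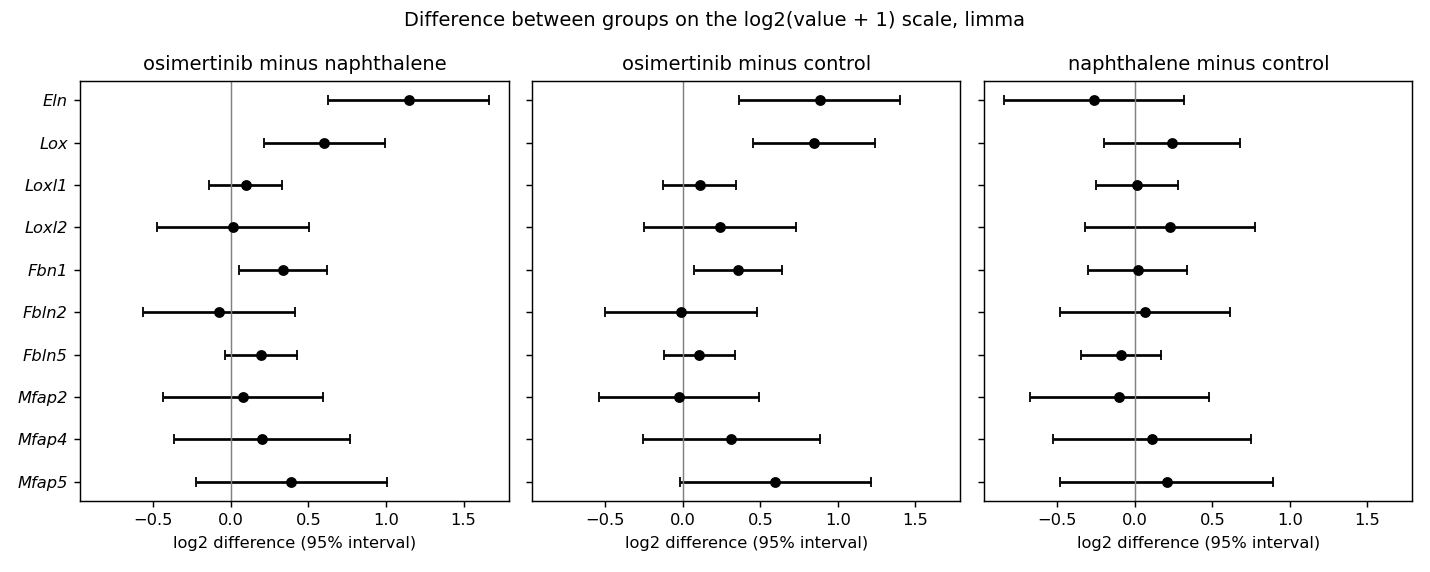
Log2 differences of the 10 genes on the log2(value + 1) scale (horizontal axis) with 95% intervals from limma, for osimertinib minus naphthalene, osimertinib minus control and naphthalene minus control. Eln, Lox and Fbn1 have intervals above 0 in both comparisons of osimertinib, and all 10 intervals of naphthalene minus control span 0.

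Counted over the 10 members, osimertinib against naphthalene set apart groups that had both received naphthalene. The unnamed gene took a large share of reads in all 3 naphthalene libraries and in 1 of 5 osimertinib libraries, so the difference goes with library kind as well as with the drug. The groups did not overlap, with osimertinib higher, for 2 members (Eln and Lox), and were lower for 0, where 3.82% of all genes were higher and 2.12% lower without overlap. An unadjusted p under 0.05 with higher values was found for 3 members, against 7.08% of all genes, and with lower values for 0, against 3.22%, or 10.3% of genes in either direction. The median log2 difference was 0.20 over the members and 0.06 over all genes. After adjustment limma called 0% of genes, edgeR 0%, and DESeq2 0.135% of the 15513 genes it adjusted.

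Osimertinib against control asked how far the combined treatment lay from the untreated lung. The groups did not overlap, with osimertinib higher, for 4 members (Eln, Lox, Fbn1 and Mfap5), where 2.91% of all genes did so, and 0 members were lower, where 3.43% did so. An unadjusted p under 0.05 was found for 3 members, all higher (2.31% of genes), and 0 lower (2.5%), or 4.8% of genes in either direction. The median log2 difference was 0.28 over the members and −0.01 over all genes. Limma called 1 gene in all (0.00616%), no member, edgeR also 1 (0.00616%), and DESeq2 0.465% of the genes it adjusted, with Lox among them. Against the 6 naphthalene and control libraries together, 0.629% of genes had all 5 osimertinib values higher, among them Eln and Lox. Both comparisons share the osimertinib libraries, so their counts are not independent. The members were chosen with earlier results of these data known, so their counts beside the shares of all genes are a description only.

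Naphthalene alone against control compared injured with untreated lung, but every naphthalene library and no control library had the large share of the unnamed gene, so the treatment and that library difference cannot be told apart. All 10 members had overlapping groups, where 4.94% of all genes were higher and 11.2% lower without overlap, and 0 members had an unadjusted p under 0.05, against 1.73% of genes higher and 5.74% lower, 7.46% together. The log2 differences ran from −0.26 for Eln to 0.24 for Lox, with a median of 0.04 over the members and −0.06 over all genes. Limma and edgeR called 0 genes here (0%), with 1211 at an unadjusted p under 0.05 in limma. DESeq2 called 0.227% of the 4856 genes it adjusted, which left out Loxl2, Fbln2, Mfap2 and Mfap5. The intervals reached up to 0.89 for Mfap5 and down to −0.84 for Eln, so these 6 libraries leave room for a change of that size. With libraries scaled to equal totals outside the dominant gene, the median of all genes was −0.471, that of the members −0.387, and 10 of 10 members were below 0, so the signs in this comparison follow the scaling.

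**Figure D3:**
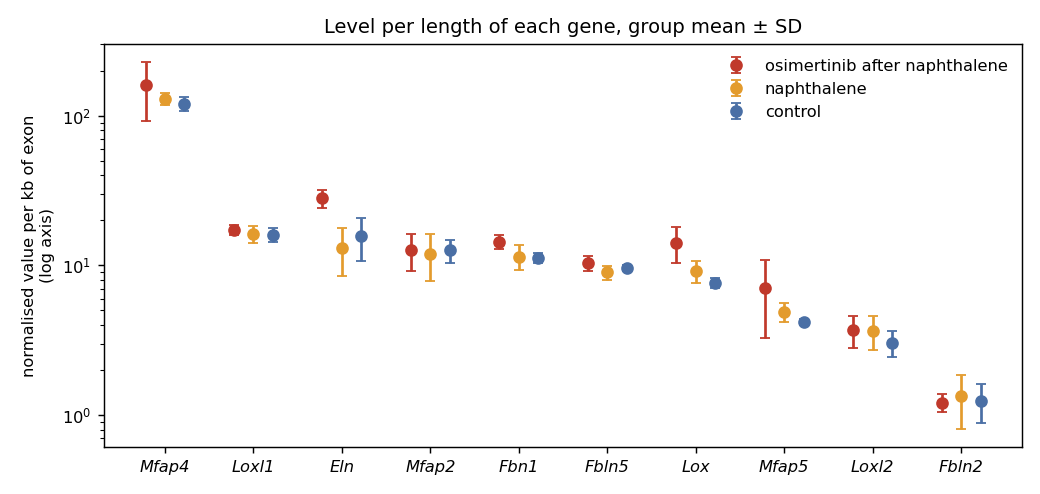
Level of each gene in scaled CPM per kb of exon (vertical log axis, group mean ± SD) in osimertinib after naphthalene, naphthalene and control, ordered by the control mean. Mfap4 lies highest and Fbln2 lowest in each group, and Eln at 28.2 in osimertinib is second only to Mfap4 there.

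Levels of different genes were compared per kb of exon, with lengths from an annotation of an earlier build. In osimertinib Mfap4 had the highest level per length, at 160 ± 68.0, followed by Eln at 28.2 ± 3.89, Loxl1 at 17.3 ± 1.43, Fbn1 at 14.4 ± 1.63, Lox at 14.2 ± 3.89, Mfap2 at 12.6 ± 3.52 and Fbln5 at 10.4 ± 1.15 (SD, n = 5). With naphthalene alone Loxl1 (16.2 ± 2.15) stood above Eln (13.2 ± 4.71), and in control they stood at 16.1 ± 1.62 and 15.7 ± 4.94 (SD, n = 3 each), so these neighbours did not differ beyond their spread in either group. Lox was at 9.11 ± 1.53 per kb with naphthalene and 7.62 ± 0.568 in control. Mfap5, Loxl2 and Fbln2 were the lowest in all 3 groups, in that order, with Fbln2 at 1.21, 1.33 and 1.25 per kb in osimertinib, naphthalene and control. In osimertinib Eln and Loxl1 differed beyond their SDs, while Fbn1, Lox and Mfap2 did not differ from each other beyond theirs.

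**Figure D4:**
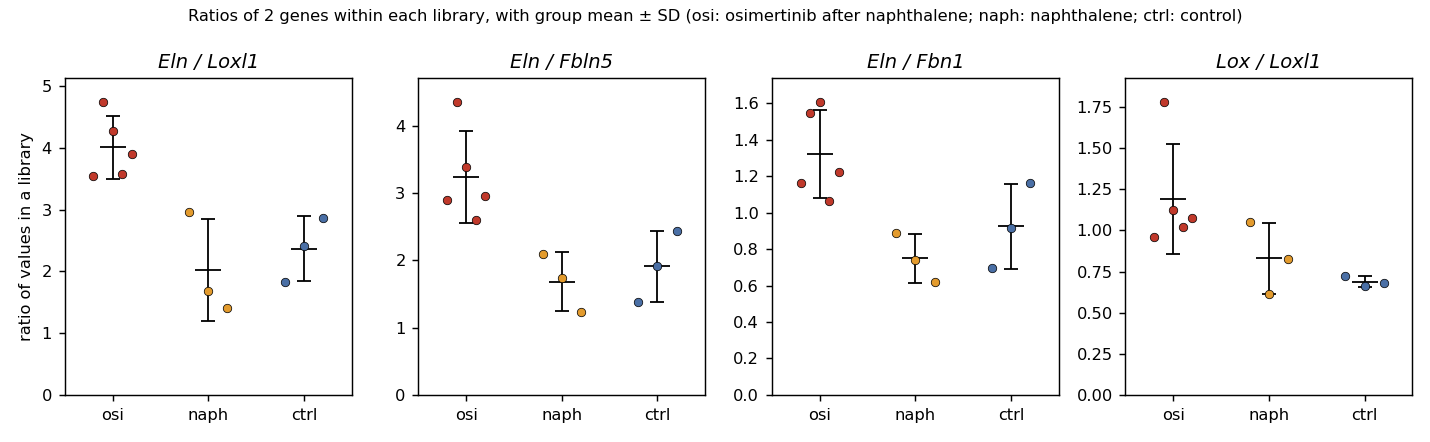
Ratios of 2 genes' scaled CPM within each library (vertical axis, from 0), for osimertinib after naphthalene, naphthalene and control, with group mean ± SD. In the Eln to Loxl1 and Eln to Fbln5 panels all 5 osimertinib points lie above all 6 others.

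Ratios between members within a library do not depend on how libraries were scaled, and are given as values with no test. There were 3.54 to 4.74 units of Eln per unit of Loxl1 in osimertinib, 1.41 to 2.96 in naphthalene and 1.82 to 2.87 in control, with no overlap. The ratio of Eln to Fbln5 was 2.60 to 4.35, 1.23 to 2.09 and 1.38 to 2.44 in the same groups, again with no overlap. Eln to Fbn1 was 1.07 to 1.61 in osimertinib, above the 0.620 to 0.889 of naphthalene but meeting control, at 0.695 to 1.16. The ratio of Eln to Lox overlapped in all 3 groups, with 2.66 to 3.81 in osimertinib, 1.71 to 2.82 in naphthalene and 2.51 to 4.20 in control. Lox to Loxl1 was 0.957 to 1.78 in osimertinib, overlapping the 0.615 to 1.05 of naphthalene and above the 0.661 to 0.725 of control. These are 5 of the 11 ratios computed. Among the others, Eln to Loxl2 was also higher in osimertinib than in both groups. Eln to Fbln2 stood clear of naphthalene but overlapped control, and Eln to Mfap2 stood clear of control but overlapped naphthalene. Eln to Mfap4, Eln to Mfap5 and Lox to Loxl2 overlapped in every comparison.

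Within the osimertinib group no single library was highest throughout. Osimertinib 5 had the highest value for Loxl1, Loxl2, Fbln5 and Fbn1, osimertinib 3 for Mfap2, Mfap4 and Mfap5, osimertinib 2 for Eln and Lox, and osimertinib 4 for Fbln2. Osimertinib 4 was the lowest for 4 members and osimertinib 3 for 3, among them Fbn1. Across all 11 libraries Eln had a Pearson correlation of 0.851 with Fbn1 and 0.816 with Lox on the log2 scale, of 0.661 with Fbln5, and of −0.156 with Mfap2 (a description over libraries that include the group differences). The genes most like the mean of the 10 standardised members, out of 11649 named genes with a mean of at least 5 scaled CPM, were Ei24, Irx1, Ube2f, Gem, Adamts2 and Col3a1, with Pearson correlations of 0.882 to 0.914 over 11 libraries. Of these, Adamts2, which trims the ends of procollagens, was at 36.3 ± 3.81 in osimertinib (SD, n = 5), 25.7 ± 4.96 with naphthalene and 22.7 ± 4.32 in control (SD, n = 3 each). The collagen gene Col3a1 was at 506 ± 70.3, 313 ± 48.8 and 261 ± 16.5 in these groups.

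Other genes of elastic fibre assembly were a list of 21 with 19 tested. By limma 0 of 19 passed in any comparison, and their median log2 difference was 0.08 for osimertinib against naphthalene (0.06 over all genes), 0.02 against control (−0.01) and −0.11 for naphthalene against control (−0.06). The one gene without overlap between osimertinib and naphthalene was Efemp1, or fibulin-3, at 55.7 ± 7.06 in osimertinib (SD, n = 5) against 76.0 ± 9.54 with naphthalene (SD, n = 3), where control was at 56.8 ± 7.88 (log2 −0.45, adjusted p = 0.270). Ltbp3, a binding protein of latent TGF-beta, was at 107 ± 11.1 against 85.7 ± 10.8 (log2 0.32, adjusted p = 0.326), and its relative Ltbp2 at 69.0 ± 12.7 against 50.4 ± 11.5 (log2 0.45, adjusted p = 0.439). Adamts17, a secreted protease tied to fibrillin microfibrils, was at 13.7 ± 4.11 against 8.42 ± 1.87 (log2 0.61, adjusted p = 0.372). Between naphthalene and control Emilin1, an elastin-microfibril interface protein, was at 27.5 ± 4.64 with naphthalene against 38.1 ± 5.41 in control (log2 −0.46, adjusted p = 0.632).

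Of the list of 10 genes of lysyl oxidase maturation and copper supply, 9 were tested and 0 passed by limma. The median log2 difference was 0.09 for osimertinib against naphthalene, 0.07 for osimertinib against control and −0.09 for naphthalene against control. The copper importer Slc31a1 had the smallest p, at 61.4 ± 6.43 in osimertinib (SD, n = 5) against 48.6 ± 0.655 in control (SD, n = 3) (log2 0.32, SE 0.10, adjusted p = 0.640), without overlap.

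**Figure D5:**
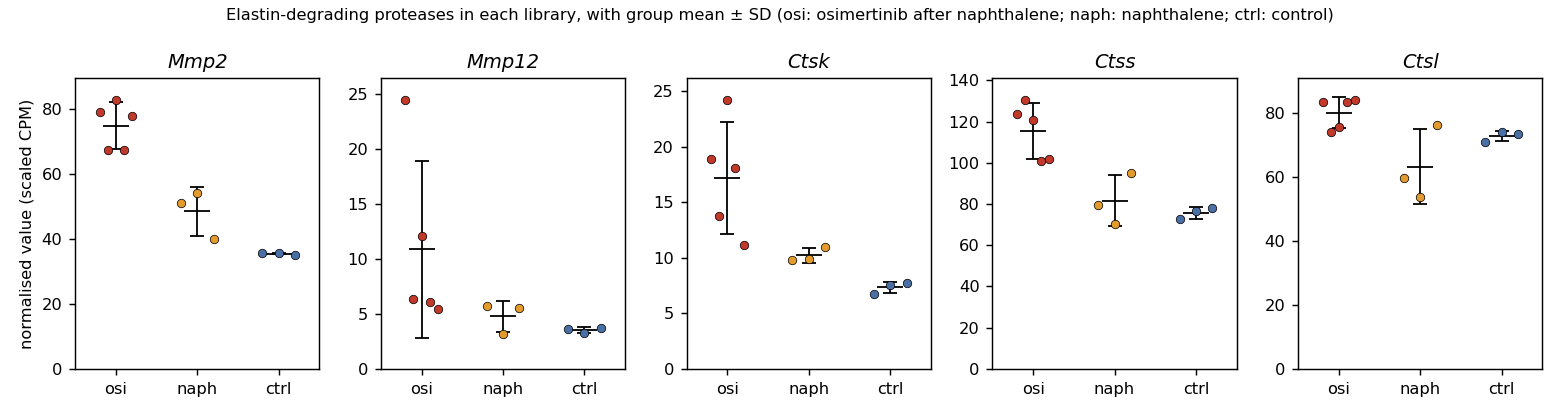
Scaled CPM of 5 elastin-degrading proteases (vertical axis, from 0) in each library (points), for osimertinib after naphthalene, naphthalene and control, with group mean ± SD. Mmp2, Ctsk and Ctss lie higher in all 5 osimertinib libraries than in all 6 others, for Ctsk and Ctss by a narrow gap. Mmp12 has 1 osimertinib library at 24.4.

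Proteases able to cut elastin, a list also chosen with earlier results known, held the one gene that passed limma's test over all genes. Of 12 listed, 7 were tested, and in osimertinib against control 1 rose and 0 fell. That gene was the gelatinase Mmp2, at 79.1, 67.2, 82.7, 67.3 and 77.7 scaled CPM in osimertinib 1 to 5, 51.1, 54.2 and 39.9 in naphthalene 1 to 3, and 35.5, 35.6 and 35.2 in control 1 to 3. The groups were in steps with no overlap, and the log2 difference from control was 1.05 (SE 0.11, adjusted p = 0.0113). The call was lost without control 1, 2 or 3 and without osimertinib 1 or 5 (adjusted p = 0.0617 to 0.157 by limma, log2 1.03 to 1.06). It was also lost with the replicate number as a block, which leaves out osimertinib 4 and 5 (adjusted p = 0.135). With libraries scaled to equal totals outside the dominant gene it was lost too (log2 0.85, adjusted p = 0.850). Against naphthalene Mmp2 had a log2 difference of 0.62 (adjusted p = 0.169 by limma), and DESeq2 called it there (log2 0.57, adjusted p = 0.0195). The cysteine protease cathepsin K, Ctsk, was at 17.2 ± 5.05 in osimertinib (SD, n = 5), 10.2 ± 0.681 with naphthalene and 7.35 ± 0.520 in control (SD, n = 3 each), with an adjusted p of 0.297 against naphthalene and 0.313 against control. Cathepsin S, Ctss, was at 115 ± 13.5, 81.7 ± 12.4 and 75.7 ± 2.89 in these groups (adjusted p = 0.203 and 0.313 by limma). Of all genes, 0.629% had all 5 osimertinib values above the other 6 libraries, as Mmp2, Ctsk and Ctss did. The gap was narrow for Ctsk, at 11.13 in osimertinib 5 against 11.01 in naphthalene 3, which rested on 24 reads. For Ctss it lay between 100.69 in osimertinib 4 and 94.996 in naphthalene 3, which rested on 207 reads. By DESeq2 on the recovered reads both rose against control (adjusted p = 0.000365 for Ctsk and 0.00133 for Ctss), and both were called with array weights (adjusted p = 0.00611 and 0.0107 by limma). Macrophage elastase, Mmp12, was at 24.4, 6.35, 12.03, 6.05 and 5.40 in osimertinib 1 to 5 against 3.58, 3.27 and 3.74 in control (log2 1.17, adjusted p = 0.760). The median log2 difference of the 7 genes was 0.50 against naphthalene and 0.59 against control, where all genes had 0.06 and −0.01. The inhibitors of these proteases, 12 genes with 7 tested, had medians of 0.27 and −0.04 and 0 members passed.

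Markers of the cells that make elastic fibres are given beside these results, since in whole lung fewer cells of a type and less RNA per cell cannot be told apart. The 9 alveolar and matrix fibroblast markers summed to 1373 to 2320 scaled CPM in osimertinib. Their sums were 1366 to 1594 in naphthalene and 1249 to 1596 in control. Of them, 7 of 9 were above 0 for osimertinib against naphthalene (median log2 0.24) and 6 of 9 against control (median 0.21). Within this list the collagen gene Col3a1 averaged 506, 313 and 261 in osimertinib, naphthalene and control. Pdgfra, a gene of the same list chosen after its values were seen, averaged 265, 252 and 260. Both are single examples, and the other markers of the list are not given one by one. The 8 adventitial fibroblast markers summed to 467 to 717, 358 to 465.8 and 455 to 469, with 7 of 8 above 0 for osimertinib against naphthalene (median 0.25). The sums of these 2 groups stood apart by a narrow gap only (467.2 in osimertinib 2 against 465.8 in naphthalene 3), and the osimertinib sums overlapped control. Of the 8 genes, 1 was higher without overlap against naphthalene, where 3.82% of all genes were. The 8 smooth muscle markers summed to 114 to 165, 118 to 178 and 138 to 256, with 6 of 8 above 0 for osimertinib against naphthalene (median 0.12) and 0 of 8 against control (median −0.40). The 7 heart muscle markers summed to 29.8 to 81.4, 27.5 to 64.5 and 41.1 to 68.4, with 6 of 7 above 0 against naphthalene (median 0.57, the largest of the marker lists in that comparison) and 5 of 7 against control (median 0.17), and Tnnt2 and Nppa were at 0 in some library. The 6 leukocyte markers went both ways, with 3 of 6 above 0 for osimertinib against naphthalene (median −0.165). Of the 6, 3 were lower without overlap, where 2.12% of all genes were, and 0 higher, where 3.82% were. They summed to 3514 to 8959 in osimertinib, 2959 to 5381 in naphthalene and 2972 to 3418 in control. The 6 pericyte markers summed to 190 to 259, 199 to 227 and 202 to 276, and none of the fibroblast, smooth muscle and pericyte markers was at 0 in any library. Cartilage of large airways had 2 of 7 markers in the table, which summed to at most 2.75 in any library, and the other 5 were not analysed here. The part of cell content in the differences of Eln, Lox and Fbn1 was not tested.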

How the data were processed

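Libraries from 11 mouse lung samples were directional and depleted of ribosomal RNA, per the labels' protocols. The authors deposited a normalised signal, namely CPM of a scaled library size, and the build GRCm39 and the tools edgeR, RSEM 1.3.0, Bowtie2 and Trimmomatic 0.38 are listed, without roles or settings, in the submitters' processing notes. In the deposited values, 100% were whole multiples, within 0.01, of the smallest value of their library, which gave whole reads back, and the implied scaling equalled edgeR's TMM (largest relative difference 1.11e-15). Gene names came from a table of Ensembl IDs and symbols (23123 of 23255 IDs matched), and exon lengths from GENCODE M21 (GRCm38). No member shared its values with another gene, and within groups the chi-square of any pair of libraries was 3.44 per degree of freedom or more.

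Genes with a mean of at least 1 scaled CPM (16225) were tested as log2(value + 1) in limma 3.58.1 (R 4.3.3), fitting the 3 groups together with a variance trend. There were 8 residual degrees of freedom, and p-values were Benjamini-Hochberg adjusted over every tested gene, with a threshold of 0.05. This scale understates the change of low genes. The script was tested on simulated data. edgeR 4.0.16 and DESeq2 1.42.0 were run on the recovered reads as alternatives. Intervals of single values are 95% Poisson intervals. The members and lists were chosen with earlier results of these data known. Besides the members, up to 4 genes per list and comparison were named by smallest p, with a mean of at least 5 scaled CPM, and the 6 genes most like the members. The alternatives tried were other pseudocounts (0.1 and 5), other filters (none, or a mean of 5), median-ratio and equal-total scaling, the compared groups alone, array weights, the replicate number as a block, the high read share as a term, libraries left out, and, after the data were seen, osimertinib 2 alone and all settings for the other genes named from the lists. The correlations of deviations from group means between naphthalene and osimertinib libraries of the same number were 0.122, 0.159 and 0.523. Only for number 3 was the same-numbered naphthalene library the one that correlated best with the osimertinib library. The values therefore do not settle whether replicate numbers are pairs, and no label states a pairing. The main fit did not use replicate numbers, and the block is given as an alternative. Osimertinib 4 and 5 share their numbers with no other library, so the block leaves them out of the group differences.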

Additional observations from a re-analysis of the deposited data

Results flagged for a closer look

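Among the 5 osimertinib libraries, osimertinib 3 lay far from the other 4 for Mfap5 (49.1 scaled CPM, against 15.9 to 24.1), for the summed leukocyte markers (8959) and for the summed lung markers (28117). Lyz2 made up 8620 of the leukocyte sum and Sftpc 17256 of the lung sum, while other markers were low in osimertinib 3, with Ptprc at 144, Ager at 631 and Scgb1a1 at 3484, against control means of 185, 788 and 11111. Each gap to the nearest library was larger than Dixon's 95% critical value allows in a group of 5 (0.753, 0.931 and 0.726 of the range). Of 25 such sets tested 3 were past that limit, and chance alone gives about 1 in 20.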

How the results depend on the processing

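Eln kept its direction in osimertinib under every alternative run, at 0.87 to 1.40 against naphthalene and 0.63 to 1.10 against control (log2), and Lox at 0.44 to 1.19 and 0.64 to 0.95. No member was called by limma except with array weights (Lox and Fbn1 against control), and DESeq2 added Lox. Members with few reads, such as Fbln2, are limited by depth. Over the 10 members all alternatives together gave 55 reversed signs, 672 unchanged calls and 3 calls gained. No member was called in the main fit, so an unchanged call is a member that stayed uncalled or had no adjusted p. Fits without a library of a group not compared leave the estimate as it was, and these count as unchanged. The causes of the reversed signs were not tested.

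Genes called for naphthalene against control numbered 0, but 21 with the 2 groups alone, 5 with array weights, 2 with the read share as a term, 38 without osimertinib 2 and 3, 11 by DESeq2, and 0 to 12 leaving out 1 library (12 without osimertinib 2). For osimertinib against naphthalene 0 became 7 with equal totals, 1 with the 2 groups alone, 4 with array weights, 2 with the read share as a term, 47 without osimertinib 2 and 3, 21 by DESeq2, 1 with osimertinib 2 alone, and 0 to 11 leaving out 1 library (11 without osimertinib 2). For osimertinib against control 1 became 0 with equal totals, 149 with array weights, 2 with the read share as a term, 2 without osimertinib 2 and 3, 75 by DESeq2, and 0 to 2 leaving out 1 library. Members at an unadjusted p under 0.05 numbered 1 with equal totals both for naphthalene against control, where there were 0, and for osimertinib against control, where there were 3. The count against control with osimertinib was 4, with Mfap5, under median-ratio scaling, array weights, edgeR and DESeq2. The counts were 2 to 4 leaving out 1 library in either comparison of osimertinib, against 0 to 0 for naphthalene against control.

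The replicate number as a block pairs libraries of 1 number. Osimertinib 4 and 5 have numbers found in no other group, so the block takes the differences from osimertinib 1 to 3 only. With the block, genes called for osimertinib against control fell to 0. Members at an unadjusted p under 0.05 by limma were then 4 against control (Eln, Lox, Mfap4 and Mfap5, without Fbn1) and 3 against naphthalene (Eln, Lox and Mfap4). Loxl2 turned to −0.12 against naphthalene and Mfap2 to 0.041 against control. Mmp2 against control lost its call (adjusted p = 0.135 by limma), and no other named gene changed its call with the block.

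With equal totals, naphthalene minus control was −0.20 for Lox, −0.43 for Loxl1, −0.20 for Loxl2, −0.33 for Fbln2, −0.43 for Fbn1, −0.34 for Mfap4, −0.22 for Mfap5, −0.032 for Efemp1 and −0.015 for Mmp2, osimertinib minus naphthalene 0.14 for Fbln2, and osimertinib minus control −0.094 for Loxl1 and −0.097 for Fbln5. The medians of all genes were then 0.278 and −0.191 in the comparisons of osimertinib. With the read share as a term, naphthalene minus control was −0.49 for Lox, −0.046 for Fbln2, 0.19 for Fbln5 and 0.39 for Mfap2, and osimertinib minus control 0.074 for Mfap2. Osimertinib minus naphthalene was then 0.011 for Fbln2, −0.027 for Fbln5, −0.31 for Mfap2 and −0.088 for Mfap4, as with osimertinib 2 alone. Array weights gave −0.016 for Loxl1 in naphthalene minus control. Loxl2 in osimertinib minus naphthalene was −0.024 with median-ratio scaling, −0.035 by edgeR and −0.039 by DESeq2. In osimertinib minus control, Fbln2 was 0.0028 with median-ratio scaling and 0.049 without osimertinib 2 and 3, and Mfap2 was 0.022 by edgeR and 0.025 by DESeq2.

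Leaving out 1 library at a time, naphthalene minus control ran from −0.52 to 0.0063 for Eln, −0.092 to 0.077 for Loxl1, −0.20 to 0.26 for Fbln2, −0.11 to 0.16 for Fbn1 and −0.35 to 0.078 for Mfap2. Osimertinib minus naphthalene ran from −0.19 to 0.17 for Loxl2, −0.27 to 0.19 for Fbln2, −0.10 to 0.33 for Mfap2 and −0.0070 to 0.37 for Mfap4, and osimertinib minus control from −0.17 to 0.18 for Fbln2 and −0.16 to 0.074 for Mfap2.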

Other observations

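The 6 myofibroblast markers went opposite ways, a pattern chosen after its values were seen. Aspn, which encodes the small proteoglycan asporin, was at 16.2 in osimertinib, 9.52 with naphthalene and 8.55 in control as group means (log2 0.66 against naphthalene and 0.79 against control), without overlap. Hhip, an inhibitor of hedgehog signalling, was at 32.9, 47.2 and 45.8 in these groups (log2 −0.51 and −0.48), also without overlap. Neither passed limma's test over all genes, and the summed level of the list was 60.4 to 79.9 in osimertinib, 71.2 to 83.1 in naphthalene and 73.0 to 75.3 in control.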
